A study of Mus musculus with 6 samples.

Results

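The enzymes and carriers that activate, transport, burn, lengthen, store and release fatty acids, together with the phospholipases that cut them out of membranes, were read across 6 arrays of mouse macrophages. Members were chosen by name: every probe whose gene symbol starts with one of 22 stems, such as Fabp, Acad, Acot, Elovl, Pla2g or Pld, with 1 gene left out. This gave 65 of 10076 probes, which stand for 64 of 8841 named genes. Thioglycollate-elicited macrophages, cells that enter the peritoneum after an irritant is injected, were taken from C57BL/6 females at 6 weeks of age. The groups were TSA + GW3965 + LPS, GW3965 + LPS, TSA + LPS, LPS, TSA and No treatment, with 1 array each and so no replicates. TSA (trichostatin A) inhibits histone deacetylases, LPS (lipopolysaccharide) is a bacterial cell wall component sensed by Toll-like receptors, and GW3965 activates the liver X receptors, which sense oxysterols. GW3965 was given only together with LPS, and the labels state no dose, no time, no number of mice per array and no further purification of the cells. Values are intensities in the authors' scaled units, in which the median probe of each array lies near 1.

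A fatty acid that enters a cell is bound by a fatty acid-binding protein and joined to coenzyme A by an acyl-CoA synthetase. The acyl-CoA can then be oxidised in mitochondria or peroxisomes, lengthened and desaturated, or esterified into triglyceride and phospholipid. Lipases and phospholipases free it again. In macrophages the arachidonic acid that phospholipase A2 releases is the substrate for prostaglandins and leukotrienes, and the lipid load of the cell changes its inflammatory state.

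Macrophage markers were present on all arrays. Of 8 listed, 6 were on the array and 5 of them stood at or above the median on every array, with Lyz2 between 729 and 1050. The other was Adgre1, which read 0.73 with No treatment, under that array's median of 0.984. It read 1.06 with TSA and 2.00 to 2.84 with LPS. The adipocyte genes Adipoq and Retn, listed because fat cells share several of the lipid genes, were under the floor on all 6 arrays. The floor is each array's 25th percentile, 0.198 to 0.245 units. The summed level of 7 neutrophil genes was 73.5 with TSA + GW3965 + LPS against 52.7 with GW3965 + LPS, 82.1 with TSA + LPS against 52.4 with LPS, and 34.2 with TSA against 24.6 with No treatment. It was higher with TSA in each pair and higher with LPS, and most of it came from S100a8. Other genes of the list did not follow the sum. Csf3r was lower with TSA in each pair, at 0.378 against 0.591, 0.311 against 1.16 and 0.435 against 0.702, and Ltf lay between 0.306 and 0.435 with LPS, against 0.771 to 1.11 without it. Elane and Mpo were under the floor on 5 and 6 arrays. The summed level of 4 fibroblast genes, mostly Dcn, was 11.1 to 12.4 on the arrays with LPS, against 9.12 with TSA and 5.96 with No treatment. Krt19, a mesothelial gene, lay between 0.38 and 0.518 with LPS, against 1.16 with TSA and 0.78 with No treatment. Others of its list did not follow it. Msln was under the floor on all 6 arrays and Krt8 on 3. Krt8 lay between 0.027 and 0.259 with LPS, against 0.094 with TSA and 0.252 with No treatment. For 7 mast cell and eosinophil genes the sum was 22.1 to 26.4 with LPS, against 19.1 with TSA and 18.5 with No treatment. Most of that sum came from Tpsb2, while Siglecf was highest with No treatment, at 4.66. For 4 B cell genes the sum was 6.90 to 8.24 with LPS, against 6.33 with TSA and 6.29 with No treatment. For 4 T cell genes it was 1.80 to 2.64, against 1.63 and 1.71. The part of these genes in the results was not tested, and in whole-culture RNA fewer cells of a type and less RNA per cell cannot be told apart.

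For the tests, values were floored and log2-transformed, and an additive model with terms for TSA, LPS and GW3965 was fitted with limma to all 4806 genes that reached their array's median on at least 2 arrays. A member is said to have risen or fallen where its two-sided Benjamini-Hochberg adjusted p over these genes was under 0.05. Of the 64 members 41 passed this filter on level. Under TSA 6 of the 41 rose and 1 fell, where 10.8% of all genes tested rose and 7.64% fell. Under LPS 3 rose and 8 fell, where 12.5% of all genes rose and 6.76% fell. Under GW3965 0 members rose and 0 fell. The members' shares were 14.6% risen with TSA and 19.5% fallen with LPS. Of these calls 1 of the 6 (Pla2g12a) and 1 of the 8 (Acox3) reached the array median only on the higher side of the comparison, which alone let them be tested. Over all genes this held for 52 of the 520 that rose with TSA and 38 of the 325 that fell with LPS. The median effect on the log2 scale over the 41 members was 0.01 for TSA and -0.11 for LPS, against 0.01 and 0.04 over all genes. Quantile normalization moved the LPS median of all genes to -0.10 and its calls to 519 risen and 507 fallen, in place of 602 and 325, and left the members at 3 and 8. For TSA the members stood at 5 risen and 3 fallen after quantile normalization or cyclic loess, where Lpl and Elovl1 also fell. The TSA calls over all genes moved the same way. They went from 520 risen and 367 fallen to 452 and 436 after quantile normalization, and to 473 and 468 after cyclic loess.

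In all, 14 members were called for at least 1 treatment, and 4 were called for both TSA and LPS. The matching shares over all genes were not counted, so these counts are not read as a trait of the members. Fabp4 and Acot13 rose with TSA and fell with LPS. Mgll fell with both, and Pla2g4a rose with both. The other 27 tested members did not pass for any treatment, and their fitted effects ran from -0.70 to 0.40 for TSA and from -0.77 to 0.58 for LPS. Standard errors (SE) of the members were 0.18 to 0.27 for TSA and 0.22 to 0.33 for LPS.

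**Figure D1:**
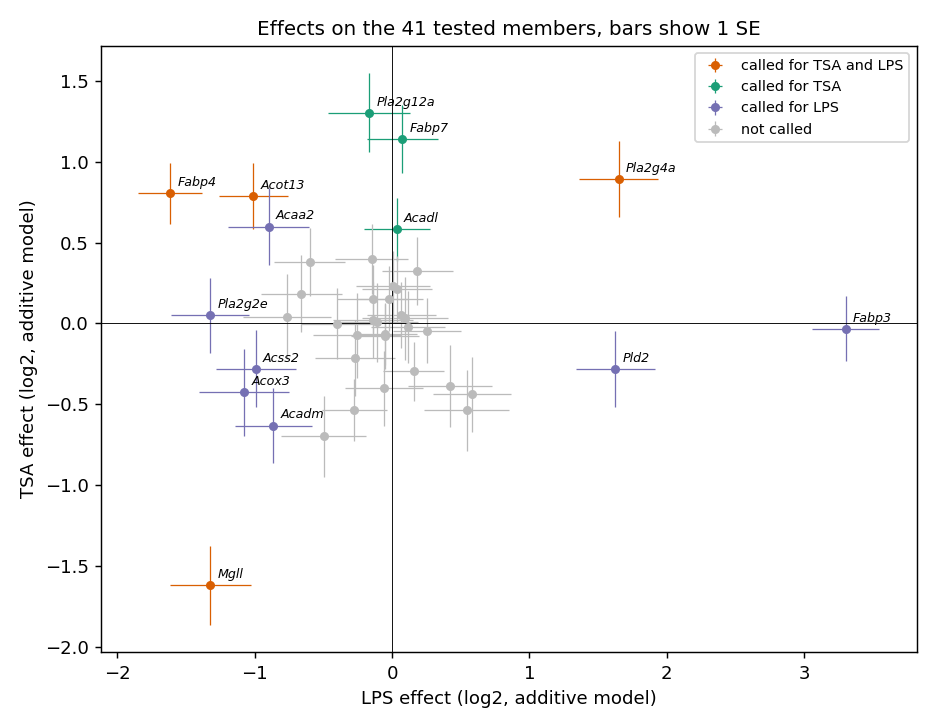
Fitted effect of LPS (x axis) and of TSA (y axis) on the log2 scale for the 41 tested members, each point a gene with bars of 1 SE, coloured by the treatments for which limma called it. Fabp3 stands alone at the right with an LPS effect of 3.30, Mgll at the lower left is lower with both treatments, and most other points lie within 1 unit of the centre.

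Promoters are shown for 4 members that differ in their calls: Fabp3, which rose with LPS, Mgll, which fell with both TSA and LPS, Fabp7, which rose with TSA, and Pla2g4a, which rose with both. Each sequence is the 250 bases before the annotated start, 5′ to 3′ on the gene's strand, from RefSeq (GRCm38.p6). They lie at chr4:130308488-130308737 (plus strand), chr6:88724162-88724411 (plus), chr10:57784673-57784922 (plus) and chr1:149961291-149961540 (minus). For Mgll and Pla2g4a, which have 2 listed starts each, the one farthest upstream was taken. Capitals mark every match, on either strand, to 5 motifs. These were the TATA box, spelled TATAAA, the CCAAT box, the GC box, spelled GGGCGG, the AP-1 site, spelled TGANTCA, and a loose NF-kB core, GGG followed after any 5 bases by a pair of C.
Fabp3: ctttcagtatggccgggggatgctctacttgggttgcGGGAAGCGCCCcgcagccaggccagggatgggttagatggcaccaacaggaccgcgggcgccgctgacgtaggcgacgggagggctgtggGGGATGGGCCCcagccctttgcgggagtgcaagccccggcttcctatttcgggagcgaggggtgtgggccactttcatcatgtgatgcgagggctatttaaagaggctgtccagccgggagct
Mgll: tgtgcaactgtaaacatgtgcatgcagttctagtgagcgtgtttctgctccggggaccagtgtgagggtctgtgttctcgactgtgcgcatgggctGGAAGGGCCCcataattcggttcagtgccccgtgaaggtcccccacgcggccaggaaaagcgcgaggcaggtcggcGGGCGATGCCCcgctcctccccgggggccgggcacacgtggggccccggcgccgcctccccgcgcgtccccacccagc
Fabp7: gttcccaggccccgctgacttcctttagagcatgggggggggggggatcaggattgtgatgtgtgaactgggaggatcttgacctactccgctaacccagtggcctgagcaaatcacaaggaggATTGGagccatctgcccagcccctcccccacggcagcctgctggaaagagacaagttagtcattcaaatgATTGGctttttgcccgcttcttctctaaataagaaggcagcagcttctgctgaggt
Pla2g4a: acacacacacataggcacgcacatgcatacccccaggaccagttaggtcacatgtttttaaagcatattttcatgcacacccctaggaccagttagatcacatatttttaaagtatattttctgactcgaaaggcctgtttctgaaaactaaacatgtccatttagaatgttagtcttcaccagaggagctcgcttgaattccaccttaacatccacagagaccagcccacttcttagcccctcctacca
Fabp3 held 4 matches to the NF-kB core and Mgll 3, some of them overlapping one another. That core is loose and was found in 45.8% of 32851 promoter windows of the same length. Fabp7 held 2 matches to CCAAT, which 33.8% of windows hold, and Pla2g4a held 0 matches to any of the 5. The TATA box, GC box and AP-1 letters, found in 12.4%, 32.7% and 6.75% of windows, had no match in these 4. The share of G and C was 64.8% for Fabp3, 68% for Mgll, 54.8% for Fabp7 and 43.2% for Pla2g4a, against a median of 52.4% over all windows. A match is a string of letters and was not tested for binding.

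Fatty acid-binding proteins, small carriers that ferry fatty acids through the cell, held the largest change. Of 8 members 4 were tested and 3 were called, in different directions. With TSA 2 of the 4 rose and 0 fell, where 10.8% of all genes rose and 7.64% fell. With LPS 1 rose and 1 fell, where 12.5% of all genes rose and 6.76% fell. Fabp3, the heart-type carrier, read 178 with TSA + GW3965 + LPS, 202 with GW3965 + LPS, 158 with TSA + LPS and 196 with LPS, against 20.5 with TSA and 15.6 with No treatment. All 4 arrays with LPS lay far above both arrays without it. Fabp3 rose with LPS by 3.30 log2 units (SE 0.25, limma adjusted p = 1.65e-08, higher in 2 of 2 pairs), and its TSA effect was -0.03 (SE 0.20).

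Fabp4, the carrier of adipocytes and macrophages and a target of the nuclear receptor PPAR-gamma, went the other way with LPS. It read 190.0 with TSA + GW3965 + LPS, 123 with GW3965 + LPS, 180.1 with TSA + LPS and 83.1 with LPS, against 473 with TSA and 297 with No treatment. The arrays with LPS did not overlap those without it, and within each background the TSA array was the higher one. Fabp4 fell by 1.62 log2 units with LPS (SE 0.23, adjusted p = 4.64e-05, down in 2 of 2 pairs). With TSA it rose, by 0.80 (SE 0.19, adjusted p = 0.00842, up in 3 of 3 pairs). By size, the TSA difference was 1.54-fold with GW3965 + LPS present, 2.17-fold with LPS and 1.59-fold without LPS. Both calls held in all 14 alternatives.

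Fabp7, the brain-type carrier, read 44.6 with TSA + GW3965 + LPS against 19.0 with GW3965 + LPS, 45.0 with TSA + LPS against 16.1 with LPS, and 32.7 with TSA against 20.0 with No treatment. The 3 TSA arrays did not overlap the others. It rose with TSA by 1.14 log2 units (SE 0.21, adjusted p = 0.00157, 3 of 3 pairs), and its LPS effect was 0.07 (SE 0.26). Fabp5, the epidermal-type carrier, read 816, 847, 1128 and 821 with TSA + GW3965 + LPS, GW3965 + LPS, TSA + LPS and LPS, against 801 with TSA and 1243 with No treatment. Its 1243 was the highest value on that array, and whether such bright probes were saturated is not given in the sources used here. Fabp5 did not pass for any treatment (TSA -0.08, SE 0.20, and LPS -0.05, SE 0.25). Without the TSA + LPS or the LPS array it fell with TSA, by 0.34 (adjusted p = 0.0474 and 0.0367), and without the TSA + LPS array it fell with LPS, by 0.45 (adjusted p = 0.0403). Fabp5, Fabp9 and Fabp4 lie in this order on chromosome 3 in RefSeq (GRCm38.p6), and Fabp9 was under the floor on all arrays. Probe sequences were not used here, so cross-hybridisation between these related genes was not tested.

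**Figure D2:**
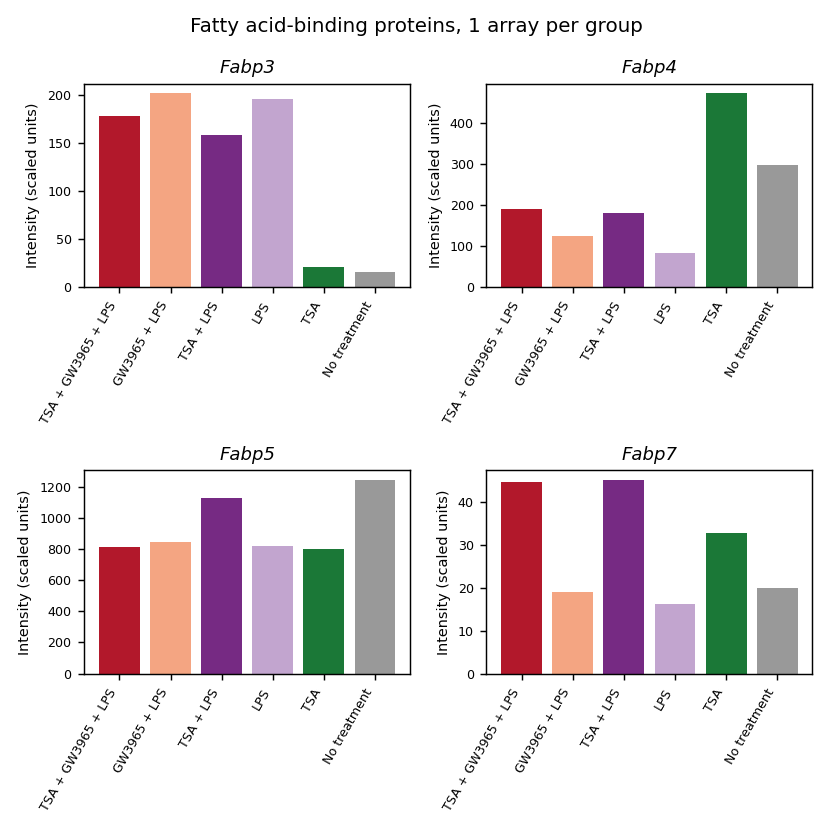
Intensity in scaled units of Fabp3, Fabp4, Fabp5 and Fabp7 (one panel each, axes from 0) on the 6 arrays, each bar 1 array. Fabp3 is high on the 4 arrays with LPS, Fabp4 is highest on the 2 arrays without LPS, and the Fabp7 bars are taller with TSA in each pair.

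Of the lipases of neutral lipid, Mgll fell with both treatments. It is the monoglyceride lipase that finishes triglyceride breakdown and degrades the endocannabinoid 2-arachidonoylglycerol. Mgll read 0.609 with TSA + GW3965 + LPS against 1.44 with GW3965 + LPS, 0.547 with TSA + LPS against 2.29 with LPS, and 1.64 with TSA against 4.78 with No treatment. The TSA array was the lower one in each pair, although the TSA array without LPS stood above the GW3965 + LPS array. Mgll fell by 1.62 log2 units with TSA (SE 0.24, adjusted p = 0.000328, lower in 3 of 3 pairs) and by 1.32 with LPS (SE 0.30, adjusted p = 0.00343, lower in 2 of 2 pairs). The 2 arrays with both TSA and LPS were under their medians. Lpl, the lipoprotein lipase that macrophages secrete, read 314 with TSA + GW3965 + LPS against 338 with GW3965 + LPS, 245 with TSA + LPS against 330.4 with LPS, and 226 with TSA against 287 with No treatment. It was lower with TSA in each pair but did not pass (-0.30, SE 0.18, adjusted p = 0.281). It did pass after quantile normalization, at -0.46 (adjusted p = 0.0457), and after cyclic loess, at -0.54 (adjusted p = 0.0255). Lipe, the hormone-sensitive lipase of fat cells, was under the floor on all arrays.

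Among acyl-CoA synthetases and thioesterases, Acot13 rose with TSA, and Acot13 and Acss2 fell with LPS. Acot13, a thioesterase that splits long-chain acyl-CoA, read 17.6 with TSA + GW3965 + LPS against 11.7 with GW3965 + LPS, 15.3 with TSA + LPS against 7.76 with LPS, and 28.9 with TSA against 16.7 with No treatment. Within each pair the TSA array was higher, and each LPS array was lower than its partner without LPS. Acot13 rose by 0.79 log2 units with TSA (SE 0.20, adjusted p = 0.0138, 3 of 3 pairs). It fell by 1.01 with LPS (SE 0.25, adjusted p = 0.00695, lower in 2 of 2 pairs). Its TSA call was lost without the TSA + GW3965 + LPS array (adjusted p = 0.052) and without the GW3965 + LPS array (0.0518).

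Acss2, which makes acetyl-CoA from acetate outside mitochondria, read 1.89, 2.15, 1.15 and 1.94 with TSA + GW3965 + LPS, GW3965 + LPS, TSA + LPS and LPS, against 3.08 with TSA and 2.87 with No treatment. The arrays with LPS did not overlap those without it. Acss2 fell by 0.99 log2 units with LPS (SE 0.29, adjusted p = 0.0219, lower in 2 of 2 pairs). That call was lost without the TSA array (-0.70, adjusted p = 0.354) and without the TSA + LPS array (-0.64, adjusted p = 0.15). Its mitochondrial counterpart Acss1 did not pass, nor did the peroxisomal thioesterase Acot8.

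The long-chain synthetase Acsl5, an enzyme of the outer mitochondrial membrane and endoplasmic reticulum, read 13.7 with TSA + GW3965 + LPS against 22.2 with GW3965 + LPS, 11.6 with TSA + LPS against 27.1 with LPS, and 13.6 with TSA against 11 with No treatment. It was high on the 2 arrays with LPS and no TSA and close to one level on the other 4. Its additive effects did not pass. Leaving out the TSA or the No treatment array, Acsl5 fell with TSA (-0.96, adjusted p = 0.00547 and 0.00512). Leaving out the TSA or the TSA + LPS array, it rose with LPS, at 1.17 and 1.06 (adjusted p = 0.0071 and 0.0059). Acsl4, which prefers arachidonic acid, read 1.0 with TSA + GW3965 + LPS against 1.06 with GW3965 + LPS, 0.59 with TSA + LPS against 0.967 with LPS, and 0.499 with TSA against 0.636 with No treatment. It was lower with TSA in each pair by less than 2-fold and did not pass (TSA -0.38, SE 0.25, adjusted p = 0.319). Acsl4 reached its array's median only on the 2 arrays with GW3965, and this alone let it into the fit.

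The role named fatty acid oxidation had most tested members, 11 of 13. It takes in every member with the stem Acad, among them Acad8, Acad9 and Acadsb, and whether each acts mainly on fatty acids was not examined. With LPS 0 of the 11 rose and 3 fell, and with TSA 1 rose and 0 fell, beside the shares of all genes given above (12.5% risen and 6.76% fallen with LPS, 10.8% risen with TSA). Acaa2, the mitochondrial thiolase of the last step of beta-oxidation, read 22.3 with TSA + GW3965 + LPS, 11.2 with GW3965 + LPS, 17.2 with TSA + LPS and 8.63 with LPS, against 21.3 with TSA and 24.2 with No treatment. The 2 arrays with LPS and no TSA were the lowest. It fell by 0.90 log2 units with LPS (SE 0.29, adjusted p = 0.0397, lower in 2 of 2 pairs), and its TSA effect of 0.60 did not pass (SE 0.24, adjusted p = 0.0901) but was called with no level filter (0.0329) and, at 0.99, without the TSA or No treatment array. The fall with LPS was -0.31 without the No treatment array (adjusted p = 0.729) and -0.60 without the LPS array (adjusted p = 0.171). It also missed the threshold when values were floored at the array's median (adjusted p = 0.0538) and without the intensity trend in the prior variance (0.0552).

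Acadm, the medium-chain acyl-CoA dehydrogenase, read 1.62, 2.08, 0.99 and 1.65 with TSA + GW3965 + LPS, GW3965 + LPS, TSA + LPS and LPS, against 1.76 with TSA and 3.06 with No treatment. It fell by 0.86 log2 units with LPS (SE 0.28, adjusted p = 0.0385, lower in 2 of 2 pairs), although the GW3965 + LPS array stood above the TSA array. That call was lost with no level filter (adjusted p = 0.0557) and without the TSA array (0.129), the No treatment array (0.382) or the TSA + LPS array (0.0645). Acox3, a peroxisomal acyl-CoA oxidase, read 0.744, 0.665, 0.654 and 0.86 on the arrays with LPS in the same order, against 1.10 with TSA and 2.27 with No treatment. Acox3 reached its array's median only on the 2 arrays without LPS, and this alone let it into the fit. It fell by 1.08 with LPS (SE 0.33, adjusted p = 0.0268, lower in 2 of 2 pairs), but the effect was -0.61 without the No treatment array (adjusted p = 0.555) and -0.69 when values were floored at the array's median (adjusted p = 0.0785).

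Acadl, the long-chain acyl-CoA dehydrogenase, was the member of this role that rose with TSA. It read 52.8 with TSA + GW3965 + LPS against 37.2 with GW3965 + LPS, 58.4 with TSA + LPS against 43.3 with LPS, and 64.9 with TSA against 37.1 with No treatment. The TSA arrays did not overlap the others. The rise was 0.58 on the log2 scale (SE 0.19, adjusted p = 0.0468, 3 of 3 pairs), close to the threshold, and the call held in 7 of 14 alternatives. It was lost after quantile normalization (0.53, adjusted p = 0.0641) and cyclic loess (0.43, adjusted p = 0.117). It was also lost without the intensity trend (adjusted p = 0.073) and when the TSA, No treatment, TSA + GW3965 + LPS or GW3965 + LPS array was left out, with adjusted p up to 0.244. The 7 other tested members, among them the very-long-chain dehydrogenase Acadvl and Hadh, which carries out the third step of beta-oxidation, did not pass. Cpt2, the inner membrane carnitine palmitoyltransferase, read 1.49 with TSA + GW3965 + LPS against 1.47 with GW3965 + LPS, 1.12 with TSA + LPS against 1.35 with LPS, and 1.51 with TSA against 1.22 with No treatment, and no treatment separated these arrays.

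Elongases, desaturases and glycerolipid acyltransferases had 0 calls among 7 tested members. Of all genes 10.8% rose and 7.64% fell with TSA, and 12.5% rose and 6.76% fell with LPS. Elovl1, which lengthens saturated and monounsaturated acyl chains to very-long-chain ones, came closest. It read 43.6 with TSA + GW3965 + LPS against 70.5 with GW3965 + LPS, 41.2 with TSA + LPS against 55.3 with LPS, and 48.8 with TSA against 68.4 with No treatment. The TSA arrays did not overlap the others, but the effect of -0.54 did not pass (SE 0.19, adjusted p = 0.0609). It passed after quantile normalization (-0.64, adjusted p = 0.0246) and cyclic loess (-0.69, adjusted p = 0.015), and without the TSA + LPS array (-0.59, adjusted p = 0.0377) or the LPS array (adjusted p = 0.0392). Dgat1, which makes triglyceride from diglyceride, read 5.49 with TSA + GW3965 + LPS against 4.59 with GW3965 + LPS, 5.52 with TSA + LPS against 3.97 with LPS, and 8.15 with TSA against 6.18 with No treatment. It was higher with TSA in each pair and lower with LPS, and neither effect passed (0.38, adjusted p = 0.228, and -0.60, adjusted p = 0.12). The acyltransferases Agpat3, Agpat4 and Agpat5, a family that includes the enzymes making phosphatidic acid, had fitted effects from -0.04 to 0.26 for TSA and LPS and did not pass.

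Among the phospholipases A2, which release a fatty acid from the middle position of a phospholipid, Pla2g4a and Pla2g12a rose with TSA, Pla2g4a rose with LPS and Pla2g2e fell with LPS. Pla2g4a encodes the cytosolic enzyme that prefers arachidonic acid. It read 23.9 with TSA + GW3965 + LPS against 15.7 with GW3965 + LPS, 28.1 with TSA + LPS against 20.5 with LPS, and 13.4 with TSA against 4.37 with No treatment. The No treatment array was the lowest, the TSA array came next, and the 4 arrays with LPS lay above both. Pla2g4a rose by 1.65 log2 units with LPS (SE 0.29, adjusted p = 0.000358, 2 of 2 pairs) and by 0.89 with TSA (SE 0.24, adjusted p = 0.0156, 3 of 3 pairs). The TSA effect was 0.53 without the TSA array (adjusted p = 0.188) or the No treatment array (0.179), so its call rests on the pair without LPS, in which it was 3.07-fold higher. The LPS effect ran from 1.11 to 2.19 over the alternatives and was called in all 14.

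Pla2g12a, a secreted phospholipase A2, read 1.86 with TSA + GW3965 + LPS against 0.767 with GW3965 + LPS, 1.71 with TSA + LPS against 0.551 with LPS, and 1.54 with TSA against 0.774 with No treatment. It reached its array's median only with TSA, and this alone let it into the fit. It rose by 1.30 log2 units (SE 0.24, adjusted p = 0.00177, 3 of 3 pairs), and by 0.79 when values were floored at the array's median. Pla2g2e, another secreted form, read 1.33, 1.34, 1.36 and 1.06 with TSA + GW3965 + LPS, GW3965 + LPS, TSA + LPS and LPS, against 2.82 with TSA and 3.22 with No treatment. The 4 LPS arrays did not overlap the others. It fell by 1.33 with LPS (SE 0.28, adjusted p = 0.00223, lower in 2 of 2 pairs), and by 1.14 without the No treatment array, where it did not pass (adjusted p = 0.0895). Pla2g7, which inactivates platelet-activating factor, read 42.1 with TSA + GW3965 + LPS against 36.5 with GW3965 + LPS, 25.9 with TSA + LPS against 54.2 with LPS, and 21.4 with TSA against 29.3 with No treatment. It did not pass for TSA (-0.44, SE 0.23, adjusted p = 0.203) or LPS (0.58, SE 0.28, adjusted p = 0.18). Without the TSA + LPS array it rose with LPS, by 1.05 (adjusted p = 0.00355).

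Phospholipases D, which make phosphatidic acid from phosphatidylcholine, had 1 call among 3 tested members. The call was a rise with LPS, which 12.5% of all genes showed. Pld2 read 1.72 with TSA + GW3965 + LPS, 1.95 with GW3965 + LPS, 2.47 with TSA + LPS and 2.57 with LPS, against 0.66 with TSA and 1.01 with No treatment. The arrays with LPS did not overlap those without it. Pld2 rose by 1.63 log2 units with LPS (SE 0.29, adjusted p = 0.000388, 2 of 2 pairs), in all 14 alternatives. Pld1 read 0.888, 1.0, 1.2 and 0.908 on the LPS arrays in that order, against 1.05 with TSA and 1.21 with No treatment, and did not pass. Pld3, an endolysosomal nuclease that carries the family's name, lay between 129 and 179 on the 6 arrays and did not pass. The phospholipases C Plcb3 and Plcb4, which cut phosphatidylinositol bisphosphate downstream of G protein-coupled receptors, did not pass either.

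**Figure D3:**
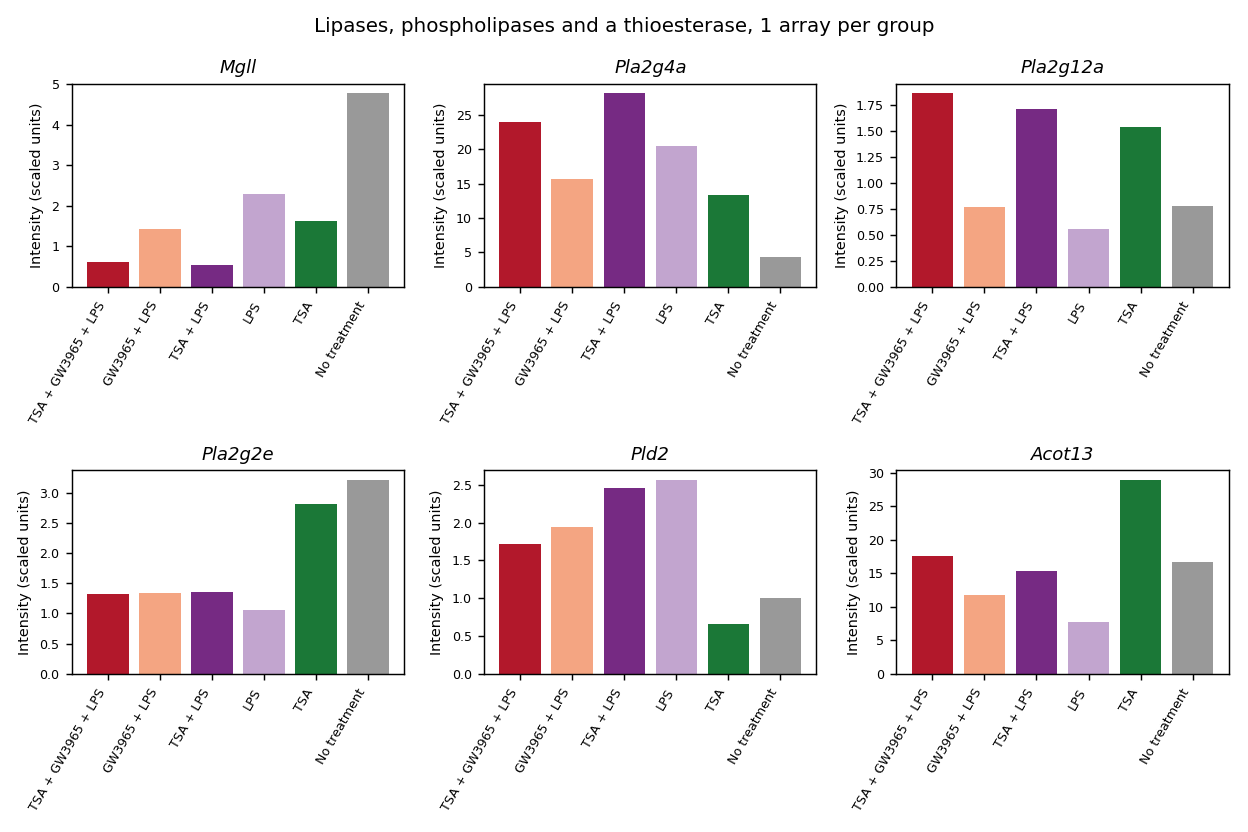
Intensity in scaled units of Mgll, Pla2g4a, Pla2g12a, Pla2g2e, Pld2 and Acot13 (one panel each, axes from 0) on the 6 arrays, each bar 1 array. Mgll bars are shorter and Pla2g12a bars taller with TSA in each pair, and Pla2g2e is low and Pld2 high on the 4 arrays with LPS.

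Counted pair by pair, without a test, members at least 2-fold apart were fewest with GW3965. A member was counted where the brighter array of the pair reached its own median. With TSA + GW3965 + LPS against GW3965 + LPS 2 of 40 members were higher and 1 lower, where 4.83% and 1.13% of all genes were. With TSA + LPS against LPS 3 of 38 were higher and 4 lower, namely Mgll, Acad8, Acsl5 and Pla2g7, where 7.57% and 9.55% of all genes were. With TSA against No treatment 2 of 43 were higher and 3 lower, against 6.98% and 4.69% of all genes. With TSA + LPS against TSA 3 of 41 were higher and 5 lower, against 9.2% and 6.37% of all genes. With LPS against No treatment 4 of 41 were higher and 10 lower, against 14% and 6.05% of all genes. Mgll was the member at least 2-fold lower in all 3 TSA pairs. The comparisons share arrays and are not independent of each other.

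**Figure D4:**
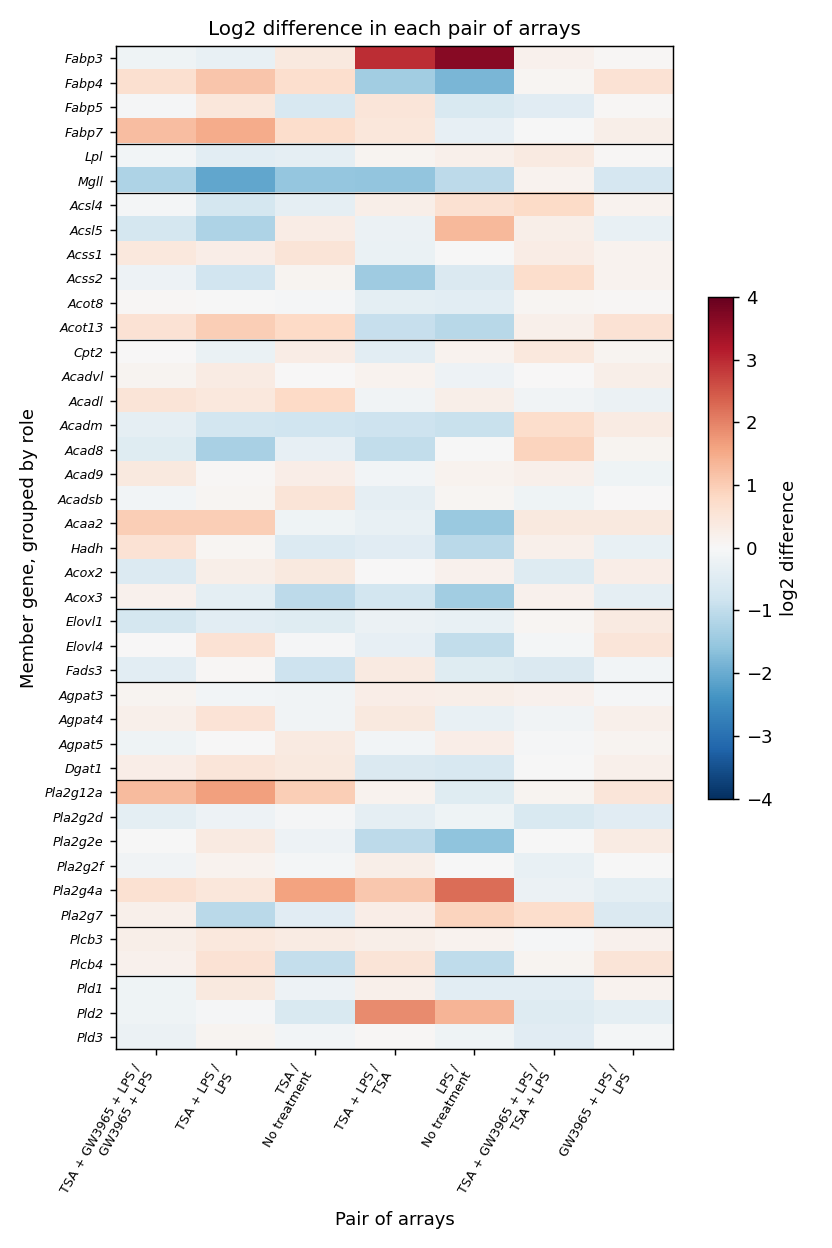
Log2 difference between the 2 arrays of each of 7 pairs (columns) for the 41 tested members (rows, grouped by role, with lines between roles), red for higher and blue for lower in the array named first. Fabp3 is the darkest red in both LPS pairs, the Mgll row is blue in the 3 TSA and 2 LPS pairs, and the 2 GW3965 columns at the right are pale.

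GW3965 added to LPS changed none of the tested members past the threshold. With TSA + GW3965 + LPS against TSA + LPS 0 of 39 members were 2-fold higher or lower, where 1.75% and 0.577% of all genes were, and with GW3965 + LPS against LPS 0 of 38, where 0.476% and 1.25% were. The fitted GW3965 effects of the 41 members lay between -0.52 and 0.53 on the log2 scale. By limma 0 members passed, also at an unadjusted p under 0.05, which 2.75% of all genes reached; 4 genes of 4806 rose (0.0832%) and 1 fell (0.0208%). Fabp4 read 123 with GW3965 + LPS against 83.1 with LPS, and 190.0 with TSA + GW3965 + LPS against 180.1 with TSA + LPS. The pairs of Fabp5 differed in direction. It was 1.03-fold higher with GW3965 + LPS than with LPS. With TSA + GW3965 + LPS it was 1.38-fold lower than with TSA + LPS, the pair that is left without the LPS array. Without the LPS array limma called 1 member, Fabp5, which fell by 0.61 (adjusted p = 0.0307).

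Whether the TSA difference itself depended on LPS was tested with an interaction term. By limma 0 of 41 members passed, where 0.0624% of all genes had a positive and 0.208% a negative term, and 4 members had an unadjusted p under 0.05, as did 4.99% of all genes. These 4 were chosen after their values were seen. The interaction was -1.26 for Acsl5 (SE 0.45, adjusted p = 0.459), 1.18 for Acaa2 (SE 0.45, adjusted p = 0.53), 1.32 for Plcb4 (SE 0.53, adjusted p = 0.6) and -1.09 for Pla2g4a (SE 0.46, adjusted p = 0.735), where a positive value means a higher TSA difference with LPS than without. A TSA by GW3965 term had 0 calls among the members and 0 at an unadjusted p under 0.05, a level that 2.91% of all genes reached.

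Other genes of lipid metabolism were read from 8 lists, chosen with earlier results of these data known. Their counts stand beside the same background: of all genes 10.8% rose and 7.64% fell with TSA, and 12.5% rose and 6.76% fell with LPS. In fatty acid synthesis and desaturation 1 of 10 tested genes rose and 4 fell with TSA, with a median of -0.20 on the log2 scale against 0.01 for all genes. Those that fell were the synthase Fasn (-1.43), the desaturase Scd2 (-0.83), the citrate lyase Acly (-0.89, lower in 2 of 3 pairs) and the citrate carrier Slc25a1 (-0.81), and the acyl dehydratase family member Hacd4 rose (1.07). Scd2 also fell with LPS (-1.33) and was the gene of these lists that rose with GW3965, by 2.28 (SE 0.30, adjusted p = 0.00162). Of 15 partners of beta-oxidation 2 rose with TSA, Crot and Hsd17b10, and 3 fell with LPS, the carnitine acetyltransferase Crat (-1.19), Amacr (-1.05) and Mlycd (-1.01). The LPS median of that list was -0.43, against 0.04 for all genes. Of 13 genes of glycerolipid synthesis and lipid droplets 3 fell with LPS, the phosphatidate phosphatase Lpin1 (-2.70) and the droplet coat proteins Plin2 (-0.82) and Plin3 (-1.22). With TSA 1 rose, Abhd6 (1.88), a hydrolase of the same 2-arachidonoylglycerol that Mgll degrades. Lpin1 reached its array's median only without LPS and Abhd6 only with TSA, which alone let them into the fit.

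Of 13 arachidonic acid enzymes 3 rose and 4 fell with LPS, and 1 rose with TSA. The prostaglandin enzymes Ptges (3.55), Ptgs2 (2.74) and Ptgds (1.26) rose, and Lta4h (-2.11) and Ltc4s (-0.97), which make leukotrienes, and Hpgds (-1.11) fell. Each of the 3 that rose reached its array's median only with LPS and entered the fit through those arrays. Ltc4s rose with TSA by 1.67 (SE 0.22, adjusted p = 0.000118). Among 12 other phospholipases and lysophospholipases Pnpla8 (0.70) and Pafah1b3 (1.01) rose with TSA, and Plcl2 (0.84) and Ddhd1 (1.52) rose with LPS. Of 8 genes of phospholipid synthesis Pgs1 (1.29), the phosphatidylglycerophosphate synthase, rose with LPS. Of 7 genes in the list named fatty acid uptake 1 rose with LPS, Msr1 (1.22), which is a scavenger receptor rather than a fatty acid carrier. Of 4 lipid-sensing transcription factors Nr1h3, a liver X receptor, fell with TSA (-1.34), and Pparg, which encodes PPAR-gamma, fell with LPS (-2.91).

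The remaining 23 members were not tested, 20 because they were under the median on every array and 3 because they reached it on 1 array. Of the 23, 8 were under the floor on all arrays: Acot12, Cpt1b, Elovl2, Fabp9, Lipe, Pla2g10, Pla2g12b and Pla2g5. Acot1, a cytosolic thioesterase with close paralogs, reached its median with TSA. It read 0.416 with TSA + GW3965 + LPS and 0.367 with TSA + LPS, was under the floor with GW3965 + LPS and with LPS, and read 1.71 with TSA and 0.616 with No treatment. Set against TSA alone it was 4.67-fold lower in the TSA + LPS array, and set against No treatment it was 2.78-fold higher in the TSA array. Pla2g6, the calcium-independent phospholipase A2, read 0.349, 0.513, 0.269 and 0.507 on the LPS arrays in the order above, against 0.715 with TSA and 1.48 with No treatment, and was 2.92-fold lower with LPS than with No treatment. Acads, the short-chain dehydrogenase, read 0.718, 0.609, 0.601 and 0.526 on these arrays, against 0.608 with TSA and 1.06 with No treatment, and was 2.01-fold lower with LPS. Dgat2, an enzyme of triglyceride synthesis, lay between 0.575 and 0.746, and the delta-6 desaturase Fads2 between 0.219 and 0.514 units. Acot11 had a second probe, which was under the floor on all 6 arrays while the first lay between 0.342 and 0.845.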

How the data were processed

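Expression on 6 arrays, 1 per group, was read from the series' value table. The authors deposited intensity values on a linear scale, already scaled between arrays (medians 0.981 to 0.987); per the labels' protocols, 0.5 ug of total RNA was primed with oligo-dT, amplified and biotin-labelled, and the scaling and background steps are not given in the sources used here. Between 19 and 28 values per array were at or below 0. Probes were named from the platform table: 8983 had 1 symbol, 1 several and 1092 none, and all 65 member probes kept their symbol in the mouse gene table. Of 138 genes with several probes the one with the highest mean was used. Each array was floored at its 25th percentile and log2-transformed. limma 3.58.1 (R 4.3.3, trended prior, 2 residual and 15.1 prior degrees of freedom in the additive fit) tested 4806 genes. Interaction terms were fitted 1 at a time, which left 1 residual degree of freedom. Their p-values therefore rest mostly on the variance pooled over genes. The fit was tested on simulated data. With 1 array per group, the residual spread is the departure of the arrays from the additive model, with array noise in it. It is not a spread between replicates, and the SE and p-values do not measure one. Nothing says the arrays came from separate cultures, so the noise in it may be technical alone, and the number of arrays limits the precision.

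Members and lists were chosen with earlier results of these data known. Named members are those called by limma, those at least 4-fold apart in a pair, and 23 set by name (those on the array); listed genes are named where called, at most 6 per list. Other members that passed only under an alternative or stood out by size were named after their values were seen. Figures used matplotlib 3.10.9 in Python 3.11.15.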

Additional observations from a re-analysis of the deposited data

How the results depend on the processing

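Scaling, floor, level filter, probe choice, prior variance, fold threshold and each array in turn were varied. These alternatives are not independent of each other. A changed level filter or prior variance leaves a gene's fitted effect as it was. Leaving out either array of a TSA pair gives the same fitted TSA effect, as for Fabp4 without the TSA or the No treatment array (0.87). The 18 calls of a member for a treatment gave 252 alternative values: 228 kept direction and call, 24 kept direction and missed the threshold, and 0 turned sign. Leaving out an array gave 5 to 10 members called for TSA, 7 to 13 for LPS and 0 to 1 for GW3965. The smallest LPS count, 7, came without the No treatment array; the cause was not tested. For GW3965 and the interactions the alternatives other than leaving out an array stayed at 0 calls; for the interactions, leaving out an array was not run, as no residual degree of freedom remains. Besides the calls named above, Fads3 fell with TSA without the TSA + LPS or the LPS array (-0.62), Elovl4 fell with LPS without the TSA + LPS array (-0.96), Acad8 without the LPS array (-0.94) and Hadh with the higher floor (-0.71). With a weaker or no level filter Acot1 rose with TSA (1.09) and fell with LPS (-1.93), Pla2g6 fell with LPS (-1.48), and with none Pla2g6 fell with TSA (-0.84) and Acot11 with LPS (-0.94). Acot1 reached the median only on the TSA array and Pla2g6 only on the No treatment array, which alone let them past the weaker filter. Acot1 was under the floor on 2 arrays, so its effects use floored values. Acot11 reached the median on 0 arrays.

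Counts by size moved with the threshold by construction. For the counts below, and for the fits that left out an array, the matching shares over all genes were not counted. These counts are therefore not read as a trait of the members. At 1.5-fold, TSA against No treatment had 16 members apart in place of 5, TSA + LPS against LPS 12 in place of 7, TSA + GW3965 + LPS against GW3965 + LPS 10 in place of 3, GW3965 + LPS against LPS 2 in place of 0 and TSA + GW3965 + LPS against TSA + LPS 7 in place of 0. At 3-fold, the counts were 1 for TSA against No treatment, 2 for TSA + LPS against LPS, 0 for TSA + GW3965 + LPS against GW3965 + LPS, 4 in place of 14 for LPS against No treatment and 3 in place of 8 for TSA + LPS against TSA. Floored at the array's median, 3 members were apart with TSA against No treatment and 1 with TSA + GW3965 + LPS against GW3965 + LPS. A floor at the 10th percentile left 7 calls for TSA and 11 for LPS. Background was not given, so signal over background could not be assessed. No paired analysis was possible because each group has only replicate number 1, so no block by number could be fitted; the additive fit itself compares arrays that differ in 1 treatment.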
